A study of Mus musculus with 6 samples.

Results

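The colony-stimulating factor ligands and receptors that act on macrophages were examined in sorted tumor-associated macrophages (TAMs). The genes are Csf1 and Il34 with their receptor Csf1r, and Csf2, which encodes GM-CSF, with its receptor genes Csf2ra and Csf2rb. Beside them stands Csf2rb2, a second beta chain that mice carry for the IL-3 receptor. All were chosen by symbol, as the ligands and receptors of these axes with Csf2rb2, and make up 7 of the 56980 genes in the deposited table. All 7 were among the 14776 genes that had at least 1 TPM (a normalized transcript level) in at least 3 libraries and were tested. TPM is a level per transcript length, scaled so that each library sums to 1000000, so levels of different genes in a library can be set side by side.

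CSF1 and IL-34 are secreted ligands of a single receptor tyrosine kinase, CSF1R, which monocytes and macrophages need for survival and proliferation. GM-CSF acts through a ligand-specific alpha chain and a common beta chain that signals through JAK2 and STAT5, and it is best known for work in alveolar macrophages and inflamed tissue. In tumors, CSF1 is a classical signal for the recruitment and maintenance of macrophages, and CSF1R is widely used as a macrophage marker.

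The libraries came from female C57BL/6 mice (WT) and from C5aR knockout mice on the same background (C5aR-/-), obtained at 6 to 8 weeks of age. Mice of both groups carried ID8, a mouse ovarian epithelial cancer line, injected into the peritoneal cavity, and tumors were taken 2 months later. The knockout is constitutive, so every host cell that would use the receptor lacks it and an effect within TAMs cannot be told apart from an effect of other host cells. Live CD45+CD11b+Ly6G-F4/80+ cells were sorted from the tumors, and 3 WT and 3 C5aR-/- libraries of polyadenylated RNA were sequenced. The labels do not say whether a library is 1 mouse or a pool, and the legends of the study name more mice per group than the 3 libraries analysed here, so p-values measure only the spread between these samples.

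C5ar1, the gene of the knocked-out receptor, had TPM values of 86.51, 37.32 and 16.18 in WT TAMs 1, 2 and 3 and of 0.38, 0.11 and 0.05 in C5aR-/- TAMs 1, 2 and 3. The groups did not overlap, and every library matched its label. Macrophage markers were present in every library but uneven in level. The 12 markers were Adgre1, Itgam, Cd68, Fcgr1, Mertk, Aif1, Lyz2, Cd14, C1qa, C1qb, C1qc and Mrc1. Their summed TPM ran from 2645 to 9167 in WT and from 2617 to 9143 in C5aR-/- TAMs. Lyz2 was the most abundant of them, at between 1150.58 and 5811.62 TPM. Adgre1 ran from 25.35 to 114.35 TPM, and Mrc1 fell to 3.34 TPM in WT TAM 3. Markers that a pure macrophage sort should lack were also present. Epithelial or ID8 markers such as Krt8, Krt18 and Krt19 summed to between 1985 and 2182 TPM in WT and between 1674 and 2246 in C5aR-/- libraries, and mesothelial markers summed to between 918 and 1254 and between 711 and 966. Neutrophil markers summed to between 633 and 2473 in WT and between 28.0 and 416 in C5aR-/- libraries, although Ly6g itself stayed at or below 4.94 TPM. Mast cell markers summed to between 170 and 200 in WT and between 68.5 and 90.1 in C5aR-/- libraries, and without Kit, which was higher in C5aR-/- libraries, to between 137 and 171 and between 4.72 and 13.9. The part of these other cells in the results below was not tested. In bulk samples, fewer cells of a type and less RNA per cell cannot be told apart.

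The 7 genes covered a wide range of levels. Csf1r, with a median of 131 TPM over the 6 libraries, and Csf2ra, with 108 TPM, were the most abundant, and neither was consistently above the other, since Csf1r was higher in 3 of 6 libraries. Csf1 followed at 35.2 TPM, below Csf2ra in 6 of 6 libraries without overlap. Il34 had a median of 19.9 TPM and stayed below Csf1 in 6 of 6 libraries, again without overlap. Csf2rb had the same median of 19.9 TPM as Il34, and each was the higher one in 3 of 6 libraries. Csf2rb2, at 5.97 TPM, was below Csf2rb in 6 of 6 libraries, although the ranges of the genes overlapped. Csf2 was the lowest at 1.19 TPM. The GM-CSF receptor genes Csf2ra and Csf2rb were therefore well above the level of their ligand gene. The level of Csf1r exceeded that of Csf1 in all libraries except WT TAM 3.

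**Figure D1:**
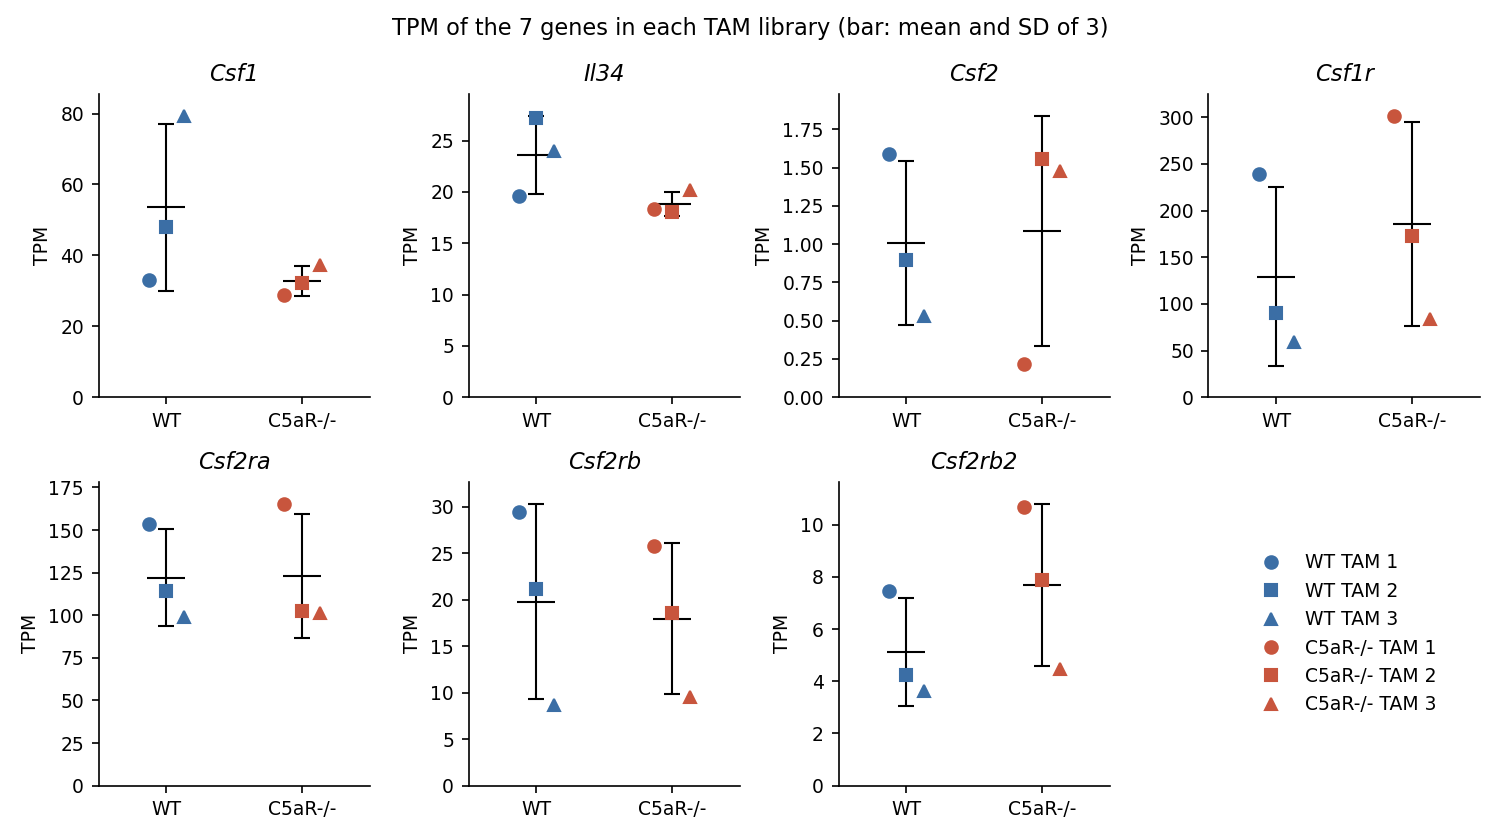
Levels of the 7 genes in TPM (vertical axes, each from 0) in the 3 WT and 3 C5aR-/- TAM libraries. Each symbol is 1 library, and bars give the mean and SD of 3. In every panel the groups overlap, and Csf1r runs from 59.4 to 239 TPM in WT and from 83.7 to 301 TPM in C5aR-/- TAMs.

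The first question was whether loss of C5aR went with a different level of the CSF1R ligands. Csf1, which encodes macrophage colony-stimulating factor, was at 33.1, 48.14 and 79.32 TPM in WT TAMs 1, 2 and 3 and at 28.93, 32.26 and 37.21 TPM in C5aR-/- TAMs 1, 2 and 3. The WT libraries were spread over a wider range, and only WT TAM 1 lay within the range of the C5aR-/- libraries. The mean was 53.5 ± 23.6 TPM (SD, n = 3) in WT and 32.8 ± 4.17 TPM in C5aR-/- TAMs. The difference, C5aR-/- minus WT, was -0.61 on the log2(TPM + 1) scale (SE 0.31, 95% interval -1.34 to 0.13), with an adjusted p of 0.423 in limma over all tested genes and an exact permutation p of 0.2. With 3 against 3 libraries the smallest p that this two-sided exact test can give is 0.1. Without WT TAM 3, the highest library, the log2 difference in Csf1 was -0.28.

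Il34, the second CSF1R ligand and a cytokine known mainly from skin and brain, was at 19.62, 27.19 and 23.96 TPM in WT and at 18.32, 18.01 and 20.16 TPM in C5aR-/- TAMs. The values of both groups lay close together, and WT TAM 1 fell between C5aR-/- libraries. The mean was 23.6 ± 3.80 TPM in WT and 18.8 ± 1.16 TPM in C5aR-/- TAMs. The log2(TPM + 1) difference was -0.30 (SE 0.17, 95% interval -0.70 to 0.10), with an adjusted p of 0.457 in limma and an exact p of 0.2. The limma interval therefore leaves room for a level of Il34 that is unchanged or moderately lower in C5aR-/- TAMs. Without WT TAM 2, the highest library, the log2 difference was -0.20.

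Csf2, the GM-CSF gene, had 1.59, 0.90 and 0.53 TPM in WT and 0.22, 1.56 and 1.48 TPM in C5aR-/- TAMs, between the 1.76 and 10.5 percentile of the tested genes. The groups were fully intermixed. Their means were 1.01 ± 0.54 and 1.09 ± 0.75 TPM, and the log2(TPM + 1) difference of 0.01 had a 95% interval of -0.90 to 0.93 (adjusted p = 0.990 in limma). Its sign changed when the pseudocount of 1 was replaced by 0.1, and when any 1 of WT TAM 2, WT TAM 3, C5aR-/- TAM 2 or C5aR-/- TAM 3 was left out. At these levels a difference in Csf2 was not detectable, and TPM values carry no read depth from which a limit could be set.

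Csf1r, the receptor of CSF1 and IL-34, varied far more between libraries of the same group than between the groups. It was at 238.84, 89.74 and 59.38 TPM in WT and at 301.34, 172.44 and 83.69 TPM in C5aR-/- TAMs, a 5.07-fold range over the 6 libraries. Libraries of both groups alternated over the whole range, with C5aR-/- TAM 1 and WT TAM 1 highest and WT TAM 3 lowest. The means were 129 ± 96.1 TPM in WT and 186 ± 109 TPM in C5aR-/- TAMs. The log2(TPM + 1) difference of 0.59 (SE 0.62) had a 95% interval of -0.90 to 2.07, an adjusted p of 0.709 in limma and an exact p of 0.5. The difference came to 0.15 without C5aR-/- TAM 1, to 0.16 without WT TAM 3, to 1.15 without WT TAM 1 and to 1.06 without C5aR-/- TAM 3, so its size rested on single libraries of both groups.

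Csf2ra, the alpha chain that gives the GM-CSF receptor its specificity, was at 153.55, 114.06 and 98.76 TPM in WT and at 164.99, 102.61 and 101.11 TPM in C5aR-/- TAMs. These levels put it between the 89.8 and 94.4 percentile of the tested genes within each library. The means were 122.1 ± 28.3 and 122.9 ± 36.5 TPM, and the groups overlapped over nearly their whole range. The log2(TPM + 1) difference was -0.00487 (SE 0.25, 95% interval -0.60 to 0.59, adjusted p = 0.995 in limma). Its sign turned under quantile normalization (0.038), under median-of-ratios scaling (0.041) and without WT TAM 1 (0.17), C5aR-/- TAM 2 (0.10) or C5aR-/- TAM 3 (0.12).

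Csf2rb, the beta chain shared by the receptors of GM-CSF, IL-3 and IL-5, was at 29.49, 21.17 and 8.70 TPM in WT and at 25.78, 18.60 and 9.55 TPM in C5aR-/- TAMs. The libraries of the groups interleaved. The means were 19.8 ± 10.5 and 17.98 ± 8.13 TPM, with a log2(TPM + 1) difference of -0.08 (SE 0.51, 95% interval -1.29 to 1.12, adjusted p = 0.957 in limma). The sign of this difference turned without WT TAM 1 (0.27), WT TAM 2 (0.041) or C5aR-/- TAM 3 (0.29).

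Csf2rb2, a second beta chain that mice carry for the IL-3 receptor, was at 7.47, 4.25 and 3.64 TPM in WT and at 10.67, 7.88 and 4.47 TPM in C5aR-/- TAMs. C5aR-/- TAMs 1 and 2 were above all WT libraries, while C5aR-/- TAM 3 lay between WT TAMs 1 and 2. The means were 5.12 ± 2.06 and 7.67 ± 3.11 TPM. The log2(TPM + 1) difference was 0.49 (SE 0.36, 95% interval -0.38 to 1.35), with an adjusted p of 0.585 in limma and an exact p of 0.2. Leaving out single libraries moved it between 0.24, without C5aR-/- TAM 1, and 0.78, without C5aR-/- TAM 3.

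Csf2rb and Csf2rb2 are near-identical neighbors, which bears on how far their separate values can be trusted. In GENCODE M21 (mm10) Csf2rb lies at chr15:78325752-78353847 on the plus strand and Csf2rb2 at chr15:78282507-78305721 on the minus strand, 20030 bases apart. Over 2628 aligned bases of their coding sequences, 2503 are identical (95.24%). Of the 4615 runs of 150 bases in the longest Csf2rb coding transcript, 165 (3.58%) also occur without a mismatch in that of Csf2rb2. A single read from such a run, which is as long as the sequenced reads, cannot be assigned to either gene by its sequence, whereas most reads of this length cross at least 1 difference. The stretches of 90 coding bases in which the genes are most and least alike are shown, read 5′ to 3′ on the coding strand from the reference genome. Capitals mark the bases that differ in the least alike stretch, at chr15:78338897-78338986 in Csf2rb and chr15:78294345-78294434 in Csf2rb2.
Csf2rb: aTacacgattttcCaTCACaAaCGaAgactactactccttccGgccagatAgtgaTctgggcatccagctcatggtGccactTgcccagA
Csf2rb2: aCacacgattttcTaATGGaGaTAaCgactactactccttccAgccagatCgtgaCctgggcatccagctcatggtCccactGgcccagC
The most alike stretch has no difference and lies at chr15:78341658-78341747 in Csf2rb and chr15:78291563-78291652 in Csf2rb2.
both genes: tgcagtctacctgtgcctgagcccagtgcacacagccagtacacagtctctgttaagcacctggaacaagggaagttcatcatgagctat
The least alike stretch holds 16 differences over its 90 bases, and the most alike stretch holds none. A read of 150 bases extends beyond either stretch. The sum of both genes depends less on how shared reads were split between them than the separate values do. TPM divides by transcript length, so the sum is not wholly free of this split, and shared reads may also have been dropped. The sum was 36.96, 25.42 and 12.34 TPM in WT (24.9 ± 12.3) and 36.45, 26.48 and 14.02 TPM in C5aR-/- TAMs (25.7 ± 11.2). The sums of the groups covered nearly the same range, and the log2(TPM + 1) difference of the sum was 0.069.

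The other genes lie on other chromosomes. Csf1 lies at chr3:107741048-107760469 (minus strand, 9 exons in the longest coding transcript), Il34 at chr8:110741829-110805924 (minus strand, 7 exons) and Csf2 at chr11:54247271-54249667 (minus strand, 4 exons). Csf1r lies at chr18:61100598-61132149 (plus strand, 22 exons) and Csf2ra at chr19:61223957-61228429 (minus strand, 12 exons). Il34 overlaps the antisense genes Gm15894 and Gm15895, which had means of 0.102 and 2.20 TPM over the 6 libraries. Csf1r overlaps Hmgxb3 on the other strand, which had a mean of 10.6 TPM. The libraries were strand-specific, but the setting used for counting is not given in the sources used here, so reads of overlapping genes may not be fully separated.

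Calls were made where limma gave p below 0.05 and the groups differed at least 2-fold. With the adjusted p, 0 of the 7 genes and 0% of the tested genes were called. With the unadjusted p, 0 of the 7 were called beside 4.96% of the tested genes (733 genes, 314 higher and 419 lower in C5aR-/- TAMs). Regardless of fold, 2133 tested genes and 0 of the 7 had an unadjusted p below 0.05. Without WT TAM 1 the unadjusted p in limma was 0.0142 for Csf1 and 0.0495 for Il34, with adjusted p-values of 0.311 and 0.400, so for these genes the count of 0 rests on that library. In 0 of the 7 did the groups separate without overlap, beside 21.3% of all tested genes. The median log2(TPM + 1) difference over all tested genes was -0.048. The intervals of Csf1r, Csf2rb and Csf2rb2 include a 2-fold difference, and that of Csf1 includes a 2-fold lower level, so the data leave room for changes of this size in these genes. For Csf2, the lowest of the 7, the log2(TPM + 1) scale understates fold changes. Its interval of -0.90 to 0.93 therefore does not exclude a 2-fold change either.

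**Figure D2:**
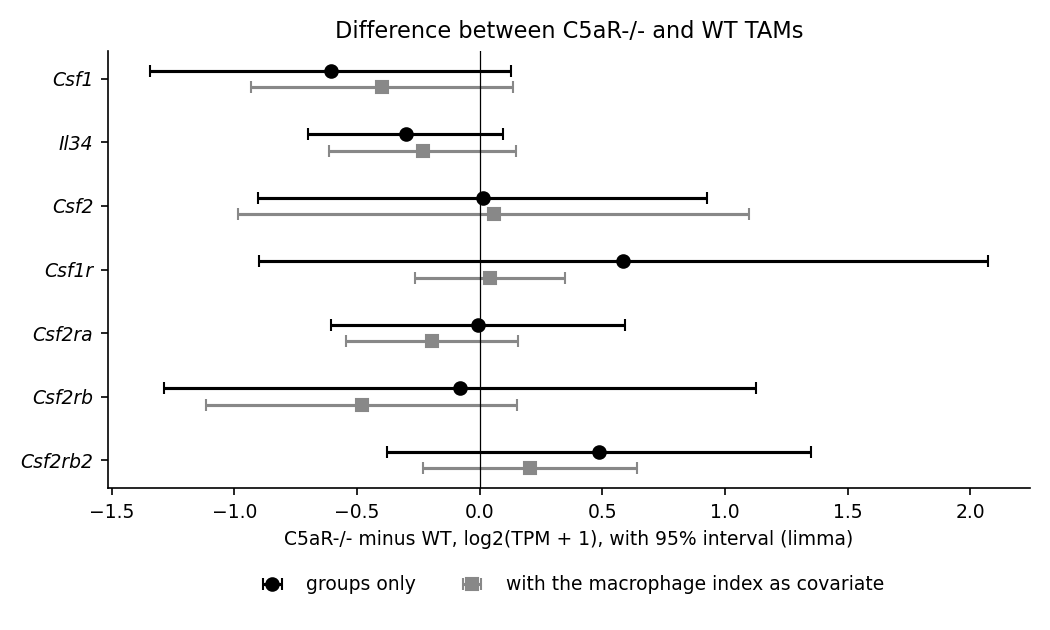
Difference in log2(TPM + 1) between C5aR-/- and WT TAMs for each gene with its 95% interval from limma (horizontal axis), for 3 against 3 libraries. Black circles compare the groups only, and gray squares also fit the macrophage index of each library. Every interval spans 0, and that of Csf1r narrows from -0.90 to 2.07 to -0.26 to 0.35.

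The spread of the receptor genes within each group was then set beside the macrophage content of the libraries. A macrophage index was taken as the mean log2(TPM + 1) of the 12 markers, none of which belongs to the 7 genes. The index was 7.57, 6.47 and 6.03 in WT TAMs 1, 2 and 3 and 7.98, 7.14 and 6.32 in C5aR-/- TAMs 1, 2 and 3. WT TAM 1 and C5aR-/- TAM 1 had the highest index of their groups, and the third library of each had the lowest. Csf1r, Csf2ra, Csf2rb and Csf2rb2 followed this order in both groups, in 6 of 6 pairs of libraries of the same group. Csf1 had the opposite order in both groups, in 0 of 6 pairs. Il34 followed the index in 2 of 6 pairs and Csf2 in 4 of 6. How many of all tested genes followed the index in 6 of 6 or 0 of 6 pairs was not counted.

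**Figure D3:**
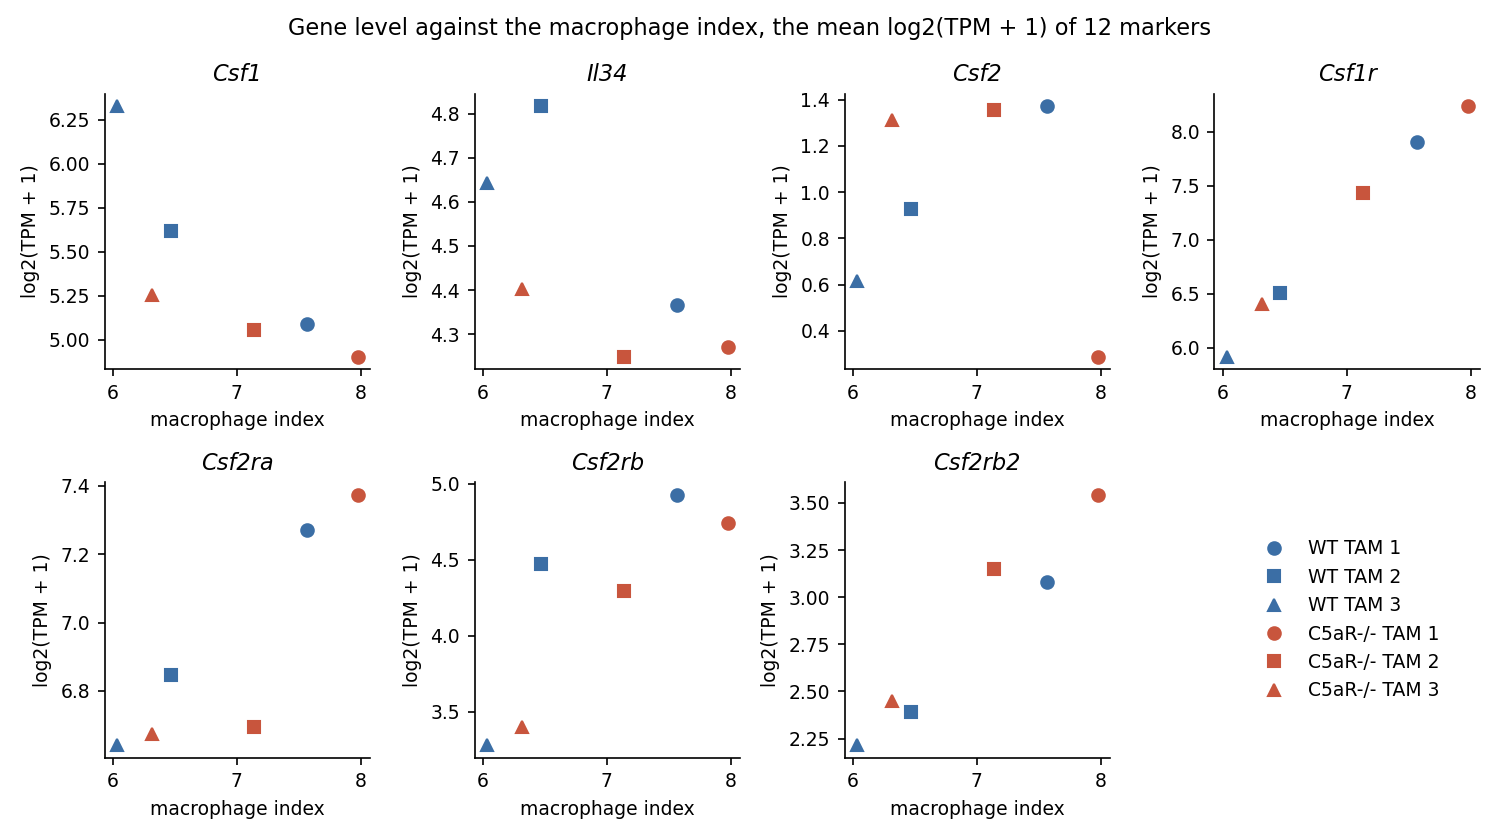
Level of each gene in log2(TPM + 1) (vertical axes, not starting at 0) against the macrophage index of the library (horizontal axes, mean log2(TPM + 1) of 12 markers). Each symbol is 1 of the 6 libraries. Points of both groups lie along 1 rising line for Csf1r and along a falling course for Csf1.

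Over the 6 libraries, Pearson's r between Csf1r and the index was 0.996 and Spearman's rho was 1. Of the tested genes, 0.0135% had an r at least this high, Csf1r included, and the median r over all tested genes was -0.16. Csf2rb2 had an r of 0.971 (rho 0.886), Csf2ra of 0.877 (rho 0.943) and Csf2rb of 0.845 (rho 0.886). Of the tested genes, 0.305% had an r at least as high as Csf2rb2, 2.44% as Csf2ra and 3.28% as Csf2rb. Csf1 had an r of -0.811 (rho -0.886), Il34 of -0.690 (rho -0.657) and Csf2 of -0.142 (rho 0.0857). An r at least as low as that of Csf1 was found in 6.54% of the tested genes, and as that of Il34 in 14.5%. Without WT TAM 3 and C5aR-/- TAM 1, which are farthest from the median index, r was 0.998 for Csf1r, 0.917 for Csf2rb2, 0.770 for Csf2rb and 0.722 for Csf2ra. It was -0.696 for Csf1 and -0.540 for Il34, and that of Csf2 changed sign to 0.569. These correlations describe 6 libraries in which all TPM values share 1 total, so a larger share of macrophage transcripts lowers the share of all others.

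With the macrophage index as a term in limma, the log2(TPM + 1) difference in Csf1r between C5aR-/- and WT TAMs was 0.042 (SE 0.12, 95% interval -0.26 to 0.35, adjusted p = 0.879). At the same index, a 2-fold difference in Csf1r lay outside this interval. The 12 markers themselves had a median log2 difference of 0.51 (9 positive, 3 negative), beside -0.048 over all tested genes. The fit therefore cannot bound a change in Csf1r that the markers share. The difference in Csf2rb2 was 0.20 (SE 0.18, interval -0.23 to 0.64). Csf2ra and Csf2rb came to -0.19 (SE 0.14) and -0.48 (SE 0.26), with adjusted p-values of 0.483 and 0.354. Csf1 was at -0.40 (SE 0.22, interval -0.93 to 0.14, adjusted p = 0.363) and Il34 at -0.23 (SE 0.15, adjusted p = 0.443). The fit with the index called 29 genes by the adjusted p, none of them among the 7.

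The summed markers of 10 other cell types were set beside Csf1. Their order of libraries was that of Csf1 in WT for 3 lists (T and NK cell, mesothelial and fibroblast), in C5aR-/- TAMs for 1 (mast cell, and not when Kit was left out), and in both groups for 0 of 10. A sum follows its most abundant genes, so single markers can run otherwise. The share of all tested genes with the order of Csf1 was not counted, so no conclusion is drawn from these counts. The mesothelial sum was 918, 1033 and 1254 TPM in WT TAMs 1, 2 and 3, the same order as Csf1, and 966, 900 and 711 TPM in C5aR-/- TAMs 1, 2 and 3, the reverse order. The fibroblast sum was 404, 467 and 605 TPM in WT and 557, 439 and 473 TPM in C5aR-/- TAMs, in the order of Csf1 in WT alone. Dcn was the largest part of this sum in all libraries but C5aR-/- TAM 3. It was at 373.38, 410.97 and 531.29 TPM in WT and at 547.94, 372.26 and 180.14 TPM in C5aR-/- TAMs. Among the other fibroblast markers, Col1a1, Col1a2 and Col3a1 ran in the order of Csf1 in both groups. Pdgfra and Lum did so in C5aR-/- TAMs alone. The T and NK cell sum was 21.1, 52.7 and 90.3 TPM in WT and 50.02, 42.2 and 21.1 TPM in C5aR-/- TAMs, likewise in the order of Csf1 in WT and in the reverse order in C5aR-/- TAMs. The epithelial or ID8 sum was 2045, 1985 and 2182 TPM in WT and 2246, 2194 and 1674 TPM in C5aR-/- TAMs, which matches the order of Csf1 in neither group. Whether Csf1 and Il34 transcripts came from macrophages or from other cells in the sort was not tested.

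Ratios within a library do not depend on its scaling, so the balance of ligand to receptor was compared next. Csf1 amounted to 0.139, 0.536 and 1.34 times the TPM of Csf1r in WT and to 0.0960, 0.187 and 0.445 times in C5aR-/- TAMs. The ratio thus differed within each group by more than it did between the group means. On the log2 scale, with 1 added to each TPM, it was -1.10 ± 1.62 in WT and -2.29 ± 1.10 in C5aR-/- TAMs, a difference of -1.19 (exact permutation p = 0.4). The ratio of Il34 to Csf1r was 0.0821, 0.303 and 0.404 in TPM in WT and 0.0608, 0.104 and 0.241 in C5aR-/- TAMs, with a log2 difference of -0.89 (exact p = 0.4). Csf1 exceeded Il34 by 1.69, 1.77 and 3.31 times in WT and by 1.58, 1.79 and 1.85 times in C5aR-/- TAMs. This ratio was similar in 5 of the 6 libraries, with WT TAM 3 alone above 2.

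**Figure D4:**
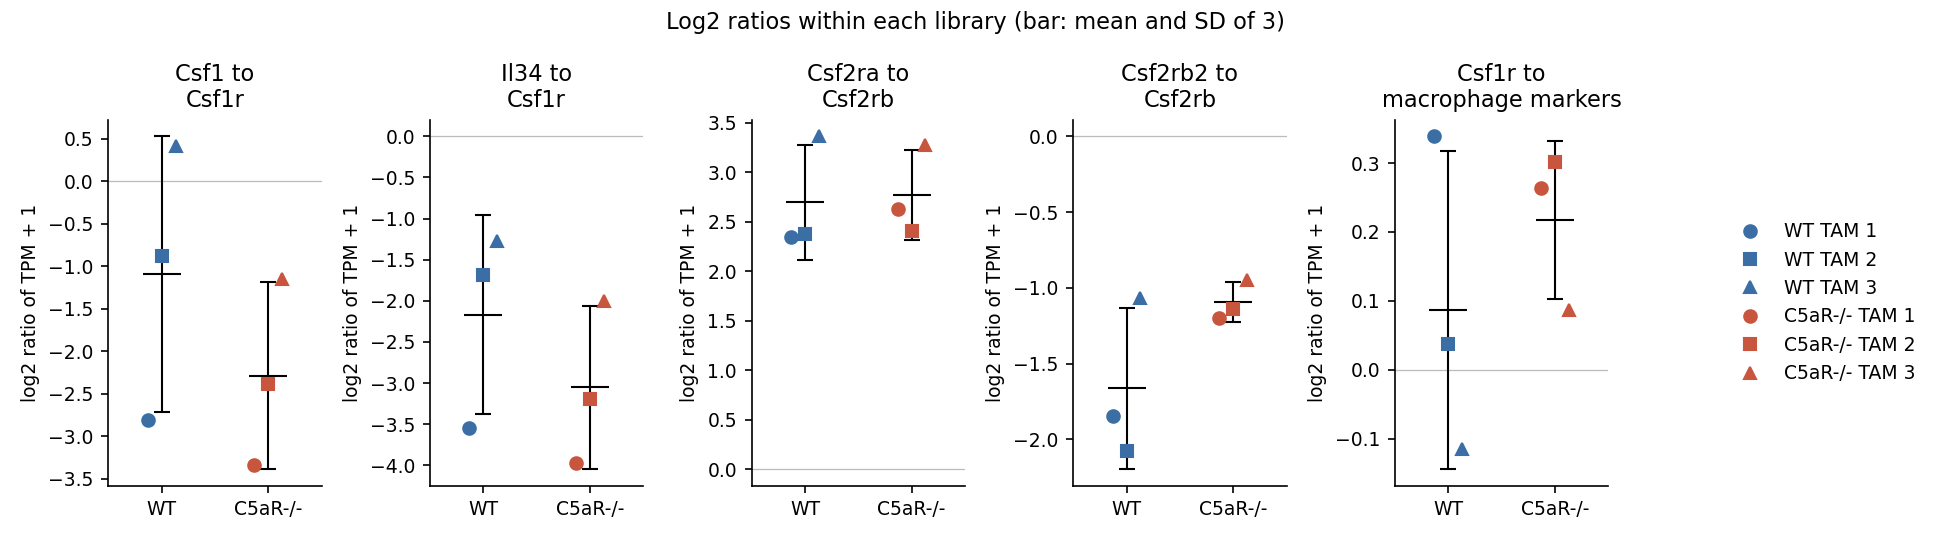
Log2 ratios within each library, with 1 added to each TPM (vertical axes, each with its own range), for the 3 WT and 3 C5aR-/- TAM libraries. Bars give the mean and SD of 3, and the gray line marks equal levels. The groups overlap in all 5 ratios, and the ratio of Csf1r to the macrophage markers stays between -0.12 and 0.34.

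Within the GM-CSF receptor, Csf2ra was at 5.21, 5.39 and 11.4 times the TPM of Csf2rb in WT and at 6.40, 5.52 and 10.6 times in C5aR-/- TAMs. The alpha chain gene was thus in excess in every library, most so in the third library of each group, where Csf2rb was lowest. The log2 ratio was 2.69 ± 0.58 in WT and 2.77 ± 0.45 in C5aR-/- TAMs (exact p = 0.8), and the sign of the difference turned without WT TAM 1, WT TAM 2 or C5aR-/- TAM 3. Csf2rb was at 3.95, 4.98 and 2.39 times the TPM of Csf2rb2 in WT and at 2.42, 2.36 and 2.14 times in C5aR-/- TAMs. WT TAM 3 lay within the range of C5aR-/- TAMs and the other two WT libraries lay above it. The log2 ratio of Csf2rb2 to Csf2rb was -1.66 ± 0.53 in WT and -1.10 ± 0.13 in C5aR-/- TAMs, a difference of 0.57 (exact p = 0.3). The log2 level of Csf1r relative to the macrophage index was 0.087 ± 0.23 in WT and 0.22 ± 0.12 in C5aR-/- TAMs (exact p = 0.5). Adjusted over the 5 ratios compared, p was 0.625 for 4 of them and 0.8 for Csf2ra to Csf2rb.

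Among themselves, the receptor genes varied together. Over the 6 libraries, Pearson's r on log2(TPM + 1) was 0.973 between Csf1r and Csf2rb2, 0.848 between Csf1r and Csf2rb and 0.846 between Csf1r and Csf2ra. The chains of the GM-CSF receptor, Csf2ra and Csf2rb, had an r of 0.817. The beta chain genes Csf2rb and Csf2rb2 had an r of 0.741. Csf1 and its receptor gene Csf1r had an r of -0.846, whereas the ligands Csf1 and Il34 had an r of 0.760.

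The genes with the most similar pattern were listed for each member by Pearson's r over the 6 libraries. For Csf1r these were Kctd12 (r = 0.997), Fcgr3 (0.994) and Kcnk13 (0.991). Fcgr3, a receptor for immunoglobulin G, was at 252.19, 102.82 and 80.18 TPM in WT and at 340.27, 215 and 110.17 TPM in C5aR-/- TAMs, with the same order of libraries as Csf1r within each group. For Csf2rb2 they were Tbxas1 (0.996), Cd200r1 (0.994) and Hexa (0.991), and for Csf2rb they were Csrnp1 (0.995), Ccl6 (0.990) and Ccl9 (0.989). Ccl6, a chemokine, was at 820.43, 339.73 and 96.1 TPM in WT and at 688.42, 347.74 and 93.15 TPM in C5aR-/- TAMs, so its range within a group was wider than that of Csf2rb. Csf2ra was closest to Ighv1-77 (0.996), Cep85 (0.996) and Bach2 (0.986). Ighv1-77, an immunoglobulin heavy chain segment, was at 11.83, 1.48 and 0 TPM in WT and at 15.42, 0.54 and 0.5 TPM in C5aR-/- TAMs, low in all but the first library of each group.

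For Csf1 the most similar genes were Gbp10 (0.997), Tubgcp4 (0.995) and Oas1b (0.991). Gbp10, a guanylate-binding protein of the interferon-inducible family, was at 3.11, 12.36 and 63.37 TPM in WT and at 2.08, 3.44 and 6.62 TPM in C5aR-/- TAMs. Its highest value was in WT TAM 3, as for Csf1, but over a far wider range. Il34 was closest to Gm28756 (0.998), Ddx52 (0.994) and Gm47102 (0.988), and Csf2 to Dhx37 (0.990), Gm47962 (0.984) and mt-Atp8 (0.980). The third gene named for each of the 7 still had an r between 0.980 and 0.991 over only 6 libraries, and the lists are a description of these libraries.

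Genes of related cytokines and of signaling below the receptors were counted in lists that were chosen by role, with earlier results of these data known. The counts beside the shares of all tested genes therefore describe the lists and cannot be read as an excess. The list of related cytokines and receptors held 12 genes, of which 7 were tested. By the adjusted p 0 were called, beside 0% of all tested genes, and by the unadjusted p 1 was higher and 2 were lower in C5aR-/- TAMs, beside 4.96% of all tested genes. Kit, a receptor tyrosine kinase of the same family as CSF1R, was at 28.92, 33.06 and 29.75 TPM in WT and at 54.65, 67.99 and 85.38 TPM in C5aR-/- TAMs. All C5aR-/- libraries were above all WT libraries, with a log2(TPM + 1) difference of 1.13 (SE 0.18, adjusted p = 0.0922 in limma). Kitl, which encodes stem cell factor, the ligand of KIT, was at 71.93, 83.11 and 54.77 TPM in WT and at 39.09, 27.12 and 20.89 TPM in C5aR-/- TAMs. It was lower in every C5aR-/- library, by a log2 difference of -1.26 (SE 0.26, adjusted p = 0.129 in limma). Csf3r, the receptor of granulocyte colony-stimulating factor and a gene of neutrophils, was at 18.74, 29.77 and 20.40 TPM in WT and at 15.81, 13.20 and 4.33 TPM in C5aR-/- TAMs, a log2 difference of -1.12 (SE 0.45, adjusted p = 0.331 in limma). The lower Csf3r stood beside lower neutrophil marker sums in the same libraries, and Kit is also a mast cell marker, although 6 other mast cell markers were lower in C5aR-/- TAMs by the unadjusted p. The 5 genes below the filter were Csf3, Il3, Il5, Il5ra and Ptprz1, which were named after their values were seen, and Il3 was listed at 0 in all 6 libraries. The median log2 difference of the 7 tested genes was 0.012, beside -0.048 over all tested genes. The groups were apart in 4 of the 7, beside 21.3% of all tested genes. These were Kit, Kitl, Csf3r and Sdc1. Sdc1 was at 30.6, 30.44 and 45.7 TPM in WT and at 59.18, 53.24 and 62.21 TPM in C5aR-/- TAMs. Its log2(TPM + 1) difference was 0.72 (SE 0.19, adjusted p = 0.188 in limma).

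The list of CSF1R signaling and receptor shedding held 20 genes, and 20 were tested. None was called by either p, beside 0% and 4.96% of all tested genes, and 11 had a positive and 9 a negative difference. The groups were apart in 3 of the 20, beside 21.3% of all tested genes. The median log2 difference was 0.023. Tyrobp, the adaptor DAP12, was the most abundant with 471.88, 257.2 and 186.84 TPM in WT and 426.58, 296.75 and 179.76 TPM in C5aR-/- TAMs. Its libraries ran in the same order within each group as those of Csf1r. Mapk3, which encodes the kinase ERK1, was even across libraries at between 146.91 and 202.39 TPM, as was Akt1 at between 82.91 and 110.95 TPM.

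The list of GM-CSF receptor signaling and GM-CSF-induced genes held 18 genes, and 18 were tested. By the adjusted p 0 were called, and by the unadjusted p 2 were higher and 0 lower in C5aR-/- TAMs, beside 4.96% of all tested genes, with 7 positive and 11 negative differences in all and a median of -0.097. Ccl17, a chemokine for CCR4-bearing T cells, was at 0.61, 3.25 and 2.79 TPM in WT and at 7.11, 12.70 and 7.97 TPM in C5aR-/- TAMs. Every C5aR-/- library was above every WT library, with a log2(TPM + 1) difference of 1.75 (SE 0.42, adjusted p = 0.165 in limma). Pparg, a nuclear receptor that GM-CSF induces in alveolar macrophages, was at 2.02, 2.54 and 1.18 TPM in WT and at 5, 4.81 and 13.41 TPM in C5aR-/- TAMs. It was likewise higher in all C5aR-/- libraries, by a log2 difference of 1.48 (SE 0.41, adjusted p = 0.207 in limma). The groups were apart in 5 of the 18 genes, beside 21.3% of all tested genes. These were Ccl17, Pparg and Ptpn11, which were higher in C5aR-/- TAMs, and Irf5 and Stat3, which were lower. Irf5 was at 95.06, 111.92 and 131.7 TPM in WT and at 86.27, 65.91 and 39.63 TPM in C5aR-/- TAMs. Its log2(TPM + 1) difference was -0.87 (SE 0.29, adjusted p = 0.266 in limma).

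The list of transcription factors of Csf1r expression and macrophage fate held 10 genes, and 10 were tested. None was called by either p, beside 0% and 4.96% of all tested genes, the groups were apart in 0 of 10, beside 21.3%, and 7 differences were positive and 3 negative with a median of 0.14. Spi1, which encodes PU.1, the factor that drives Csf1r transcription in myeloid cells, was at 66.03, 41.18 and 32.70 TPM in WT and at 83.21, 48.03 and 33.01 TPM in C5aR-/- TAMs. Its order of libraries within each group was that of Csf1r, and the groups overlapped. Ets2 was at 103.02, 67.66 and 43.59 TPM in WT and at 96.46, 65.35 and 38.23 TPM in C5aR-/- TAMs, likewise in the order of Csf1r. Maf, a factor of macrophage differentiation, was at 51.12, 43.78 and 61.06 TPM in WT and at 42.76, 65.73 and 72.17 TPM in C5aR-/- TAMs. It was highest in the third library of each group, where Csf1r was lowest.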

How the data were processed

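RNA of sorted TAMs was measured in 3 WT and 3 C5aR-/- libraries, grouped by the sample labels. Per the submitters' processing notes and the study's methods, the authors used fastp, HISAT2, StringTie, RSEM, DESeq2 and mm10, without versions, and deposited TPM values per gene. The annotation release and the strand setting of the counting are not given in the sources used here. Columns with the authors' group means of TPM were not used. Read depth cannot be had from TPM, so errors here are those between libraries, and the precision of a single value is not known. Libraries held between 14393 and 15015 genes at 1 TPM or more.

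Symbols and positions came from GENCODE M21 (mm10), which named 52073 of 56980 gene IDs, and 28003 genes were at 0 in all libraries. Differences were tested in limma 3.58.1 (R 4.3.3) by lmFit and a trended eBayes on log2(TPM + 1), for genes that had 1 TPM or more in 3 or more libraries, and p-values were adjusted after Benjamini-Hochberg. Fold changes on this scale understate those of low genes. Ratios were tested by exact two-sided permutation with scipy 1.17.1, and tables were read in pandas 2.3.3 and numpy 2.4.6 under Python 3.11.15. Figures used matplotlib 3.10.9. The fit was tested on simulated data with independent noise for each gene. The shared course of genes with the macrophage index was not simulated. The genes and lists were chosen with earlier results of these data known. Named were the 7 genes, C5ar1, list genes past the unadjusted threshold or otherwise the 3 most abundant of a list, and the 3 genes of highest r with each of the 7. Sdc1, Irf5, Stat3, Ptpn11 and the single fibroblast markers were also named, after their values were seen. Alternatives changed the pseudocount, filter, scaling, eBayes trend, replicate block, index term, the handling of Csf2rb2 and the libraries included.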

Additional observations from a re-analysis of the deposited data

How the results depend on the processing

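Under all alternatives run, 0 of the 7 genes reached an adjusted p of 0.05, the lowest being 0.238 for Csf1r. The unadjusted p fell below 0.05 in 4 cases, for Csf1 (0.0142) and Il34 (0.0495) without WT TAM 1 and for Csf1 (0.0353) and Csf1r (0.0182) with the replicate block (limma). Csf1, Il34, Csf1r and Csf2rb2 kept their direction in all of them. Leaving out 1 library at a time, the log2 difference ran from -0.90 to -0.28 in Csf1, from -0.42 to -0.20 in Il34, from 0.15 to 1.15 in Csf1r and from 0.24 to 0.78 in Csf2rb2. Directions turned for the genes near 0: Csf2 came to -0.11 with a pseudocount of 0.1 and from -0.17 to 0.36 without single libraries, Csf2ra to 0.038 with quantile normalization, to 0.041 with median-of-ratios scaling and from -0.24 to 0.17 without single libraries, and Csf2rb to 0.069 summed with Csf2rb2 and from -0.56 to 0.29 without single libraries. The log2 ratio of Csf2ra to Csf2rb differed by -0.18 to 0.41 without single libraries. The causes were not tested. Csf2 has no value with a filter of 5 TPM.

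The count of genes called by the adjusted p, which was 0 in limma, was 2 without the eBayes trend, 29 with the macrophage index and 0 to 356 without single libraries, with 1 without C5aR-/- TAM 2, 3 without C5aR-/- TAM 3 and 356 without C5aR-/- TAM 1. The count called by the unadjusted p was 475 with a filter of 5 TPM and 567 to 1266 without single libraries, the highest without C5aR-/- TAM 1. These calls split into 314 higher and 419 lower genes, and into 386 and 371 with quantile normalization. Same-numbered libraries were not taken as pairs, since neither the labels nor the methods name pairs. Their deviations correlated at 0.186, -0.011 and 0.272, beside values between -0.230 and 0.093 for libraries of unlike number. These values do not settle whether the libraries were paired. With the replicate number as a block, 0 genes were called by the adjusted and 811 by the unadjusted p, and Csf1r stayed at 0.59 (limma, adjusted p = 0.238). TPM carries no depth, so low genes such as Csf2 have no known counting error.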
